A study of Mus musculus with 8 samples.

Results

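Potassium channel genes of the mouse brain were described as the probes whose gene symbol begins with Kcn in the annotation of the array platform. There were 94 such probes for 88 symbols among the 23473 probes of the array. Of these, 36 probes belonged to voltage-gated alpha subunits, 13 to inward rectifiers, 14 to two-pore channels, 12 to calcium-activated channels and their Slo relatives, and 16 to auxiliary subunits. The other 3 were Kcnrg and the opposite-strand transcripts Kcnmb4os1 and Kcnmb4os2. RNA came from male C57Bl/6J mice, 9 weeks old, that were fasted for 6 h and perfused before the brain was removed. Control mice drank water and were sampled at day 0 (n = 2), while the others drank trehalose, a disaccharide of glucose, for 1 day (n = 3) or 10 days (n = 3). One array was hybridised per mouse. No water mice were sampled at 1 or 10 days, so trehalose and the time of sampling cannot be told apart. Mice were kept 3 per cage, and cage mates were not identified. The labels name cortical tissue and the design text the left hemisphere.

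Potassium channels let K+ leave the cell and so set the resting potential, repolarise the action potential and limit repetitive firing. Voltage-gated alpha subunits open on depolarisation, inward rectifiers and two-pore channels hold the resting potential, and calcium-activated channels shape the afterhyperpolarisation. Auxiliary subunits of the Kcnab, Kcne, Kcnip and Kcnmb groups bind the pore-forming subunits and alter their gating or their transport to the membrane.

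RefSeq promoter windows, running from 250 bases before to 50 bases after the most upstream listed start, were found for 67 of the 88 Kcn symbols. Shown are the windows of 4 of the 5 members at an unadjusted p under 0.05 between 10 days and 1 day of trehalose, all on the plus strand of GRCm38.p6. They are Kcnd2 (chr6:21215096-21215395), Kcnj3 (chr2:55435720-55436019), Kcnab1 (chr3:64948962-64949261) and Kcne4 (chr1:78816661-78816960), and the remaining member was Kcna1. Capitals mark CG dinucleotides.
Kcnd2: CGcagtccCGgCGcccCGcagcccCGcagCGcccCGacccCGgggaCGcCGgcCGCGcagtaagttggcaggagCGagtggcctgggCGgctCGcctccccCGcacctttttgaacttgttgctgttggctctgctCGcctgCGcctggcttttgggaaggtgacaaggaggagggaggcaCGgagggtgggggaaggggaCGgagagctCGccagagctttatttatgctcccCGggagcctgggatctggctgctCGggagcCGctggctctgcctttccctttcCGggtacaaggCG
Kcnj3: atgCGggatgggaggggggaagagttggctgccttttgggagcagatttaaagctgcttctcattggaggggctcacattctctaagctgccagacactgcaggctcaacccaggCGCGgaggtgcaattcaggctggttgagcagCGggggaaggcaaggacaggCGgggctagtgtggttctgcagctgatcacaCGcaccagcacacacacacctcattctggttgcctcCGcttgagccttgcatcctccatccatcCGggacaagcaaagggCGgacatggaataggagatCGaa
Kcnab1: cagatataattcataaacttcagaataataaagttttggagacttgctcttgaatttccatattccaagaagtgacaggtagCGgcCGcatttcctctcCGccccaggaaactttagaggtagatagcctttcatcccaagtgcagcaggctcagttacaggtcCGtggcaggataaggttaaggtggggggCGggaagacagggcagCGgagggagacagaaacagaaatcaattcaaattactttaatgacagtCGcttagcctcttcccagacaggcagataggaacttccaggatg
Kcne4: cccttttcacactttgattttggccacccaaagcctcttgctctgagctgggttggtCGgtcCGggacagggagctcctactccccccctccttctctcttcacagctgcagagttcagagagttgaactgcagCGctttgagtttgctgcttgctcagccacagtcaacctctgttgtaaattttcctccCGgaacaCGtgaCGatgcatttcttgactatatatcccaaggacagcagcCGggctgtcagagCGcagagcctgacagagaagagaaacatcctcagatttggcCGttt

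The Kcnd2 window held 26 CG dinucleotides, against 10 for Kcnj3, 9 for Kcne4 and 7 for Kcnab1, which has 3 listed starts. Over the 67 windows the count ranged from 1 in Kcnmb1 and Kcnrg to 49 in Kcng3, with a median of 10, while the median of all 27025 listed promoters was 7. A count of 20 or more was found in 31.3% of the Kcn windows and 26.8% of all windows. Among voltage-gated genes it was found in 13 of 24, or 54.2%, and among auxiliary genes in 14.3%. Exact matches of 3 motifs on either strand were also counted, and no motif contains another. TATAAA was present in 2.99% of Kcn windows (Kcnj9 and Kcnj15) and 14.2% of all windows. CACGTG was present in 7.46% of Kcn windows and 7.24% of all windows, and Kcne4 held one. TGACGTCA was absent from the 67 windows and present in 1.88% of all windows. None of the 3 motifs was common to the 4 printed windows.

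Each array gave an intensity per spot, used here on the log2 scale after background correction and normalisation between arrays. Median spots were 2.45 to 2.87 times as bright as blank spots, and 86.3% to 92.0% of all probes exceeded the limit set by the blanks (their mean plus 2 SD). Array profiles correlated at 0.994 to 0.998 across the 21583 tested probes and at 0.989 to 0.997 across the tested Kcn probes. Since probes of 1 array are not independent, these values are a description only. Markers of cortical excitatory neurons were measured, and so were those of striatum, thalamus, hypothalamus and choroid plexus. The array of mouse 2 at 1 day stood apart in the striatal markers, whose mean log2 intensity over 13 probes was 7.84, while on the other 7 arrays it lay between 8.52 and 8.89. Values without this array are given beside the unadjusted counts and beside some of the members whose change it moved.

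Most Kcn probes exceeded the blank limit, as did most probes of the array, of which 21583 of 23473 were tested. Of the 94 probes, 88 exceeded the blank limit on at least 2 arrays and were tested, and 82 of the 88 (93.2%) exceeded it on all 8 arrays, against 91.3% of all tested probes. Probes of Kcng3, Kcnv2, Kcnj15, Kcnj5 and Kcnj6, and 1 of the Kcnn1 probes, fell short. Kcnj6, a subunit of G protein-gated rectifiers, had raw intensities of 29.9 to 32.1 while the blank limit lay between 30.0 and 34.4, and it exceeded the limit on 1 array. Kcnj4 and Kcnj13 were not analysed here. In bulk tissue, fewer cells of a type and less RNA per cell cannot be told apart.

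Spot brightness of the tested Kcn probes ran from 5.82 to 10.84 on the log2 scale, averaged over the 8 arrays, while that of all tested probes ran from 5.79 to 15.57. These means ran from 5.91 to 10.84 in voltage-gated probes, from 5.91 to 8.29 in inward rectifiers and from 5.96 to 9.56 in two-pore probes. They ran from 5.85 to 10.59 in calcium-activated probes and from 5.94 to 10.48 in auxiliary probes. Class medians were 6.87, 6.78, 6.83, 7.03 and 7.26 in the same order, with 6.83 for all tested probes. Each probe has its own efficiency of hybridisation, so these values describe brightness and do not rank transcripts. In voltage-gated probes the median was 6.87 in the control mice, 6.85 at 1 day and 6.89 at 10 days. The two-pore median was 6.80, 6.76 and 6.86 at the same times, and the auxiliary median was 7.20, 7.31 and 7.25. It was 6.79, 6.74 and 6.80 in inward rectifiers and 7.08, 7.03 and 7.00 in calcium-activated probes. A class median depends on the probes in its middle. Per probe, the median auxiliary change at 1 day against control was 0.0090, with 8 probes higher and 8 lower.

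**Figure D1:**
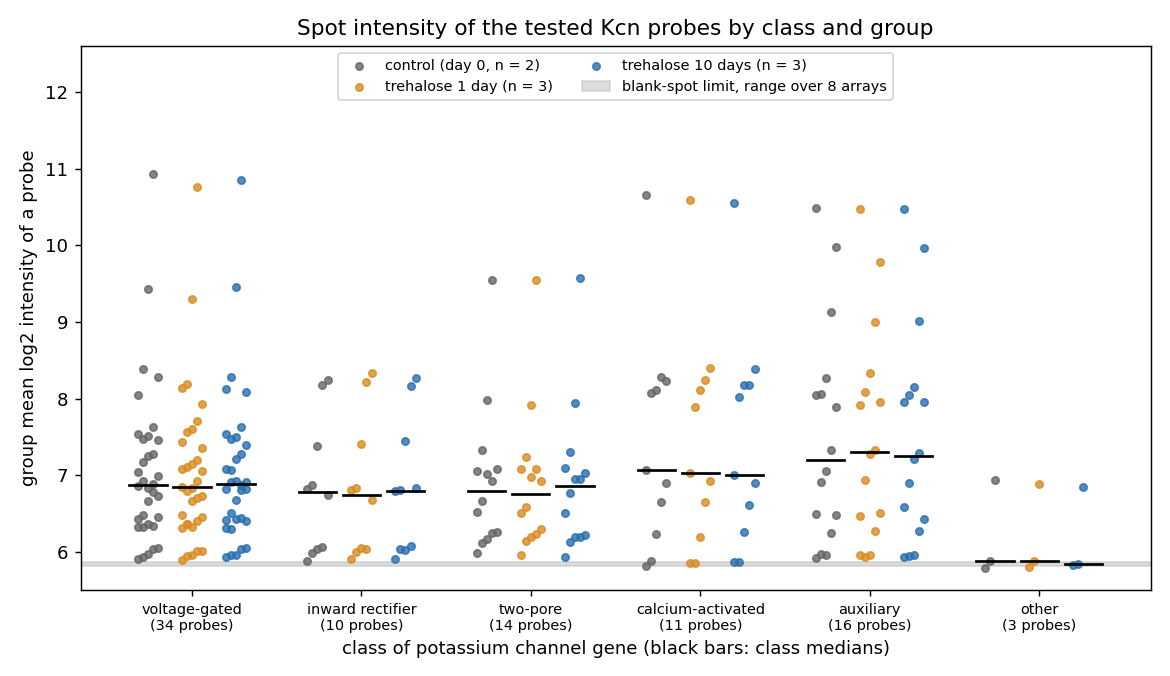
Group mean log2 intensity of each tested Kcn probe (1 point per probe and group), by class, for control, 1 day and 10 days of trehalose, with class medians as black bars and the blank-spot limit as a grey band. The points of the 3 groups overlap in every class. The voltage-gated medians are 6.87, 6.85 and 6.89, and the auxiliary medians are 7.20, 7.31 and 7.25. The median change per auxiliary probe at 1 day against control was 0.0090.

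No Kcn gene passed the test in any comparison. In one limma fit over all 8 arrays, with Benjamini-Hochberg adjustment over the 21583 tested probes, 0 of 88 Kcn probes reached an adjusted p under 0.05 at 1 day against control, at 10 days against control, between the trehalose times, or over the 3 groups together. The same fit called 0.0% of all tested probes in each. The lowest adjusted p of a Kcn probe was 1.00 in all 4. The median 95% interval of a Kcn log2 change reached 0.136 to each side against control and 0.122 between the trehalose times. What follows therefore describes measured values, none of which differed from its comparison group after adjustment.

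At 1 day against control, 38 Kcn probes were higher and 50 lower, with a median log2 change of -0.0053, and the median of all tested probes was -0.0003. Thus 43.2% of the Kcn probes and 49.7% of all tested probes were higher. An unadjusted p under 0.05 was found for 1 Kcn probe (Kcna1, lower), or 1.14%, against 3.65% of all tested probes (2.02% higher and 1.62% lower). The groups did not overlap for 15 Kcn probes (17.0%), 7 higher (7.95%) and 8 lower (9.09%), against 18.2% of all tested probes, 8.97% higher and 9.19% lower. With all 8 arrays the shares were thus near or under those of all probes. The unadjusted count was sensitive to the arrays used. It was 9 without mouse 1 at 1 day, or 10.2% of the Kcn probes against 4.71% of all tested probes in the same fit. It was 4 (4.55%) without mouse 2 at 1 day, against 3.66% of all tested probes, and 4 without control mouse 1, against 3.8%. It was 3 without mouse 1 at 10 days (3.41% against 4.08%), and 2 (2.27%) without control mouse 2 or without mouse 3 at 10 days, against 3.32% and 4.37%.

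At 10 days against control, 37 Kcn probes were higher and 51 lower, with a median log2 change of -0.0096 against -0.0017 for all tested probes. Those higher made up 42.0% of the Kcn probes and 48.6% of all tested probes. No Kcn probe had an unadjusted p under 0.05, whereas 2.0% of all tested probes did (1.23% higher and 0.774% lower). Without mouse 2 or mouse 3 at 10 days the count was 3 (3.41%), against 2.46% and 3.03% of all tested probes in those fits. Without mouse 1 at 10 days it was 2 (2.27% against 3.18%), and without either control mouse it was 1. The groups did not overlap for 8 Kcn probes (9.09%), 4 in each direction (4.55% each), against 13.4% of all tested probes, 6.46% higher and 6.97% lower.

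Between 10 days and 1 day of trehalose, 45 Kcn probes were higher at 10 days and 43 lower, with a median log2 change of 0.0013 against -0.0015 for all tested probes. Those higher made up 51.1% of the Kcn probes and 48.6% of all tested probes. An unadjusted p under 0.05 was found for 5 probes, or 5.68%, against 3.5% of all tested probes (1.85% higher and 1.65% lower). These were Kcnd2, Kcnj3, Kcne4, Kcna1 and Kcnab1, and each was higher at 10 days. The count was 8 (9.09%) without mouse 1 at 1 day or without control mouse 1, against 3.42% and 3.67% of all tested probes in those fits. Without mouse 2 at 1 day it was 4 (4.55% against 4.0%), and Kcnd2 and Kcnab1 were no longer among them. The groups did not overlap for 13 Kcn probes (14.8%), 9 of them higher at 10 days (10.2%) and 4 lower (4.55%), against 8.39% of all tested probes, 4.0% higher and 4.39% lower. Over the 3 groups, 2 Kcn probes (Kcna1 and Kcnd2) had an unadjusted p under 0.05, or 2.27%, against 2.8% of all tested probes.

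**Figure D2:**
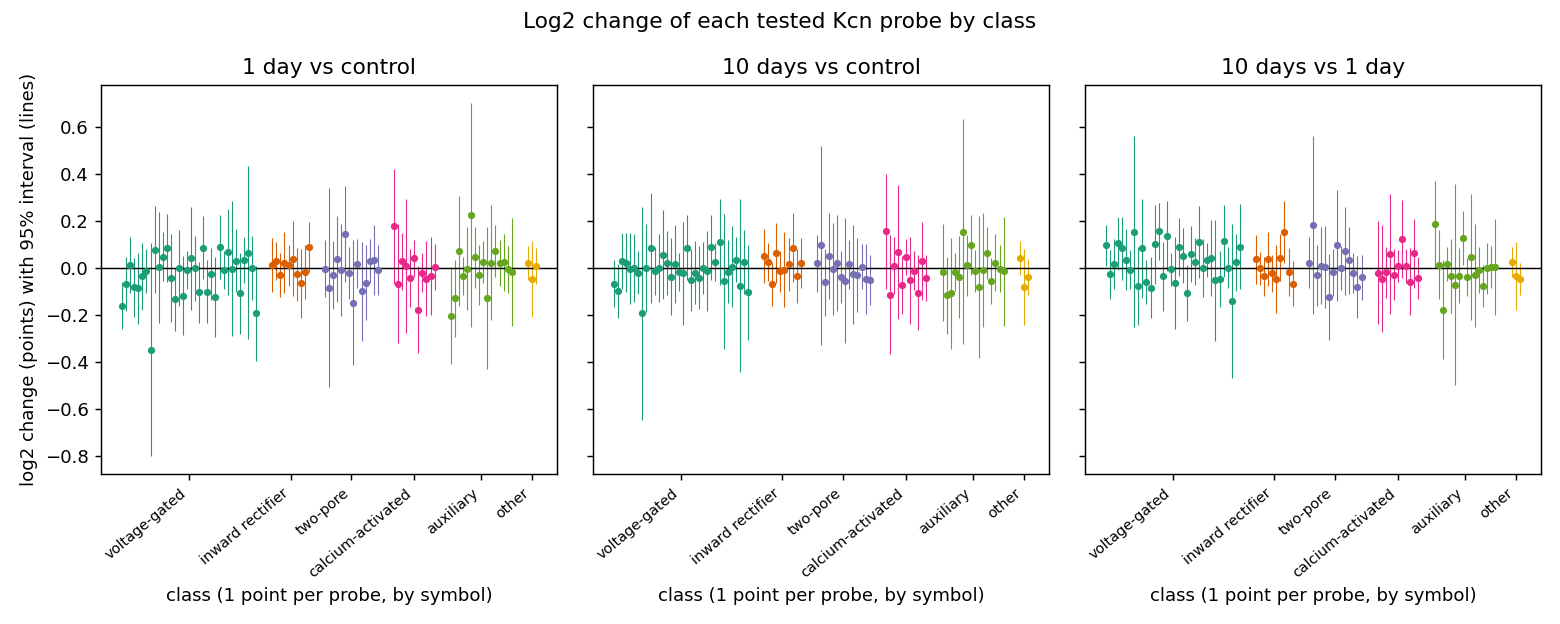
Log2 change of each tested Kcn probe (points) with its 95% interval from limma (lines), in alphabetical order within each class, for 1 day against control, 10 days against control and 10 days against 1 day. In every panel the points scatter on both sides of 0, and the widest intervals belong to Kcna7 and Kcne2.

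Large changes on the log2 scale used here lay outside most intervals. This scale is compressed, so the folds below are not folds of RNA. The intervals also depended on the processing. At 1 day against control, the median interval of all tested probes reached 0.13 to each side here. It reached 0.19 with an offset of 16, 0.27 with the local background and 0.34 with the authors' table. At 1 day against control, the 95% interval stayed within 0.58 (1.5-fold) on both sides for 86 of 88 Kcn probes, or 97.7%, against 98.6% of all tested probes. The same number held at 10 days against control (98.8% of all tested probes), and 88 of 88 held between the trehalose times (99.0%). The 2 exceptions against control were Kcna7, with an interval of -0.80 to 0.10 at 1 day, and Kcne2, with an interval of -0.25 to 0.70. Within 0.26 (1.2-fold) the interval stayed for 63 Kcn probes (71.6%) at 1 day, 72 (81.8%) at 10 days and 66 (75.0%) between the times, against 77.6%, 79.8% and 83.2% of all tested probes.

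Among voltage-gated channels, 12 of 34 probes were higher and 22 lower at 1 day, and 14 were higher and 20 lower at 10 days, both against control. The shares higher were 35.3% and 41.2%, against 49.7% and 48.6% of all tested probes. Kcna1 encodes a Shaker-type subunit of axons whose loss causes seizures in mice. It had log2 intensities of 10.90 and 10.95 in the control mice, of 10.79, 10.79 and 10.71 at 1 day, and of 10.87, 10.88 and 10.82 at 10 days. All 3 mice at 1 day lay below both control mice and below all 3 mice at 10 days, and the mice at 10 days also lay below the control mice. Kcna1 averaged 10.76 ± 0.047 at 1 day and 10.92 ± 0.039 in the control mice (SD). The log2 change was -0.16 (SE 0.043), with an unadjusted p of 0.0057 in limma and an adjusted p of 1.00. The change was -0.067 at 10 days against control and 0.095 between 10 days and 1 day. Without mouse 2 at 1 day, the change at 1 day was -0.17. Without control mouse 2, the change at 10 days against control was -0.039.

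Kcnd2 encodes an A-type channel of dendrites that opens at subthreshold potentials and inactivates quickly. It had log2 intensities of 9.38 and 9.49 in the control mice, of 9.39, 9.22 and 9.30 at 1 day, and of 9.50, 9.45 and 9.42 at 10 days. Every mouse at 10 days lay above every mouse at 1 day. Control mouse 1 lay within the range of 1 day, and control mouse 2 within that of 10 days. The means were 9.46 ± 0.039 at 10 days and 9.30 ± 0.084 at 1 day (SD), a log2 change of 0.15 (SE 0.052) with an unadjusted p of 0.019 and an adjusted p of 1.00 in limma. Without mouse 2 at 1 day it was 0.12, with an unadjusted p of 0.064. Against control the change was -0.13 at 1 day and 0.020 at 10 days, and the change at 1 day was -0.082 without control mouse 2.

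Kcnv1 encodes an electrically silent subunit, which forms no channel alone and modifies others. It had values of 8.39 and 8.38 in the control mice, of 8.34, 8.16 and 8.07 at 1 day, and of 8.40, 8.25 and 8.19 at 10 days. The mice at 1 day lay below the control mice, while those at 10 days overlapped with them. The change at 1 day was -0.19 (SE 0.087, unadjusted p 0.058 in limma). Kcnh1, an ether-a-go-go channel, also lay below control in all mice at 1 day, at 7.35 ± 0.087 at 1 day and 7.46 ± 0.017 in the control mice (SD), a change of -0.11. That change was -0.058 without mouse 2 at 1 day. Kcnh6, of the related Erg group, lay above control in all 6 trehalose mice, with changes of 0.089 at 1 day and 0.086 at 10 days against control, and of 0.036 at 10 days without mouse 1 of that group.

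Kcna2, the usual axonal partner of Kcna1, had values of 7.18 and 7.17 in the control mice, of 7.11, 7.11 and 7.09 at 1 day, and of 7.03, 7.17 and 7.02 at 10 days for its brighter probe. This was the lowest unadjusted p of a Kcn probe at 10 days against control (0.085), with a change of -0.098 (SE 0.049), and mouse 2 at 10 days lay within the control range. The dimmer Kcna2 probe, at 5.90 to 6.05, had changes of 0.013 at 1 day and 0.029 at 10 days against control. Kcna3, also a Shaker-type subunit, averaged 6.80 ± 0.037 at 10 days and 6.70 ± 0.054 at 1 day (SD), a change of 0.10, and its trehalose groups did not overlap. Kcnf1, a silent subunit, had a change of 0.13 between 10 days and 1 day, also with no overlap. Without mouse 2 at 1 day these changes were 0.075 for Kcna3 and 0.10 for Kcnf1. Kcnh2, of the Erg group, was lower by 0.11 on the log2 scale, at 7.50 ± 0.063 at 10 days and 7.60 ± 0.061 at 1 day (SD), with 1 value at 10 days inside the range of 1 day.

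Delayed rectifiers of fast-spiking interneurons and the M-current subunit measured here had small changes in the fit of all arrays. The brighter Kcnc1 probe had changes of 0.077 at 1 day and -0.0018 at 10 days against control, and the dimmer one had 0.0013 and 0.084. Between 10 days and 1 day these probes went opposite ways, at -0.079 and 0.082. Kcnc2 had changes of 0.048 and -0.013 at the same times, and Kcns3, a silent subunit enriched in parvalbumin interneurons, had changes of -0.0001 and 0.023. Kcnq3, a subunit of the M-current channel, had changes of 0.030 and -0.017, and of 0.080 at 1 day without mouse 2 of that group. The limma F test over the 3 groups gave unadjusted p-values of 0.51, 0.33, 0.88 and 0.67 for the brighter Kcnc1 probe, Kcnc2, Kcns3 and Kcnq3. Each had an adjusted p of 1.00.

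**Figure D3:**
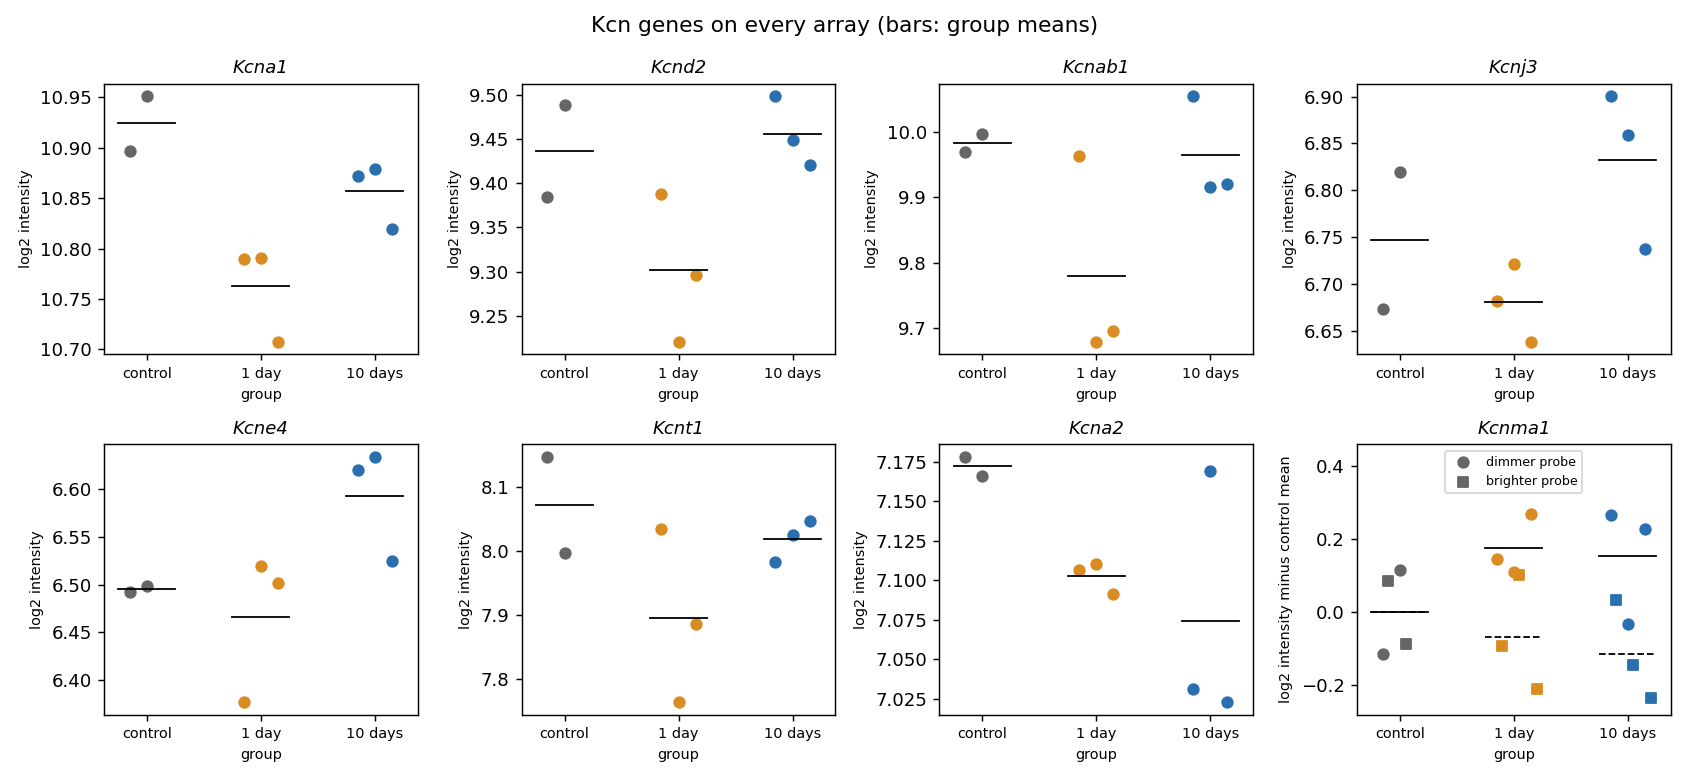
Log2 intensity of Kcna1, Kcnd2, Kcnab1, Kcnj3, Kcne4 and the brighter Kcnt1 and Kcna2 probes on every array (points) with group means (bars), for control, 1 day and 10 days of trehalose. The Kcnma1 panel plots both of its probes as log2 intensity minus the control mean, with solid bars for the dimmer and dashed bars for the brighter probe. Kcna1 lies lowest at 1 day in all 3 mice, while the trehalose means of the 2 Kcnma1 probes lie on opposite sides of 0.

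The 10 tested inward rectifiers showed log2 changes between -0.066 and 0.088 at 1 day and between -0.069 and 0.086 at 10 days, both against control, with medians of 0.011 and 0.018. Kcnj3 and Kcnj9 encode GIRK subunits, which G protein-coupled receptors such as the GABA-B receptor open through beta-gamma subunits. Kcnj3 had log2 intensities of 6.67 and 6.82 in the control mice, of 6.68, 6.72 and 6.64 at 1 day, and of 6.90, 6.86 and 6.74 at 10 days. The mice at 10 days lay above those at 1 day, by 0.15 on the log2 scale (SE 0.057, unadjusted p 0.029, adjusted p 1.00 in limma), and the control mice overlapped with both. Kcnj9 had values of 8.21 and 8.29 in the control mice, of 8.33, 8.34 and 8.34 at 1 day, and of 8.20, 8.29 and 8.32 at 10 days. The 3 mice at 1 day were close together and above both other groups, with a change of 0.088 against control (SE 0.046), and of 0.049 without control mouse 1.

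The pore-forming subunits of ATP-sensitive channels, which open when cellular ATP falls, were Kcnj8 and Kcnj11. Kcnj11, the neuronal form, had values of 6.90 and 6.85 in the control mice, of 6.86, 6.80 and 6.87 at 1 day, and of 6.83, 6.76 and 6.82 at 10 days. All mice at 10 days lay below both control mice, by 0.069 on the log2 scale (SE 0.040, unadjusted p 0.13 in limma), and the change was -0.046 without control mouse 1. Kcnj8, the form of pericytes and smooth muscle, had changes of -0.018 at 1 day and -0.035 at 10 days against control. The astrocyte rectifier Kcnj10 was near the blank limit on this array, at 5.86 to 5.93, so a change of its transcript would hardly be visible. Its partner Kcnj16 was measured at 8.10 to 8.32 and had changes of 0.039 at 1 day and -0.0084 at 10 days against control.

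Among two-pore channels, 5 of 14 probes were higher and 9 lower at 1 day, and 6 were higher and 8 lower at 10 days, both against control. The shares higher were 35.7% and 42.9%, against 49.7% and 48.6% of all tested probes. In limma over all 8 arrays, 0 of 14 two-pore probes had an unadjusted p under 0.05 in any comparison. The shares of all tested probes were 3.65% at 1 day, 2.0% at 10 days, 3.5% between the trehalose times and 2.8% over the 3 groups. Kcnk16 had changes of 0.14 at 1 day against control and -0.12 between 10 days and 1 day. Without mouse 2 at 1 day these were 0.21 and -0.19, with unadjusted p-values of 0.042 and 0.045 in limma. Kcnk1, a widely expressed weak rectifier, averaged 9.55 ± 0.0026 in the control mice, 9.55 ± 0.062 at 1 day and 9.57 ± 0.067 at 10 days (SD). Kcnk2, a channel gated by stretch and lipids, had a change of -0.15 at 1 day (SE 0.11), and of -0.042 without mouse 2 at 1 day. That mouse had the lowest value, 6.72, while the other arrays lay between 6.90 and 7.13. Kcnk9, an acid-sensitive channel, had changes of -0.0099 at 1 day and -0.051 at 10 days against control. Kcnk10, a relative of Kcnk2, was set apart by mouse 3 at 10 days, at 7.21, while the other 7 arrays lay between 6.51 and 6.69.

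Among calcium-activated channels and their Slo relatives, 5 of 11 probes were higher and 6 lower against control at both times. The share higher was 45.5%, against 49.7% of all tested probes at 1 day and 48.6% at 10 days. Kcnma1, the large-conductance channel opened jointly by calcium and voltage, had probes of opposite sign. The dimmer probe had values of 8.11 and 8.34 in the control mice, of 8.37, 8.34 and 8.50 at 1 day, and of 8.49, 8.20 and 8.46 at 10 days. The brighter probe had values of 10.74 and 10.57 in the control mice, of 10.57, 10.76 and 10.45 at 1 day, and of 10.69, 10.51 and 10.43 at 10 days. The groups overlapped for both. The dimmer probe was higher by 0.18 at 1 day and 0.16 at 10 days (SE 0.11 each), while the brighter one had changes of -0.068 and -0.11, so the array gives no direction for the gene. The change of the brighter probe at 1 day was -0.15 without mouse 2 of that group. The change of the dimmer probe at 10 days depended on single mice: it was 0.040 without control mouse 1 and 0.098 without mouse 1 at 10 days, but 0.27 without control mouse 2 and 0.25 without mouse 2 at 10 days.

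Kcnt1 encodes a sodium-activated channel. Its brighter probe had values of 8.15 and 8.00 in the control mice, of 8.03, 7.76 and 7.89 at 1 day, and of 7.98, 8.03 and 8.05 at 10 days. The lowest values were those of mice 2 and 3 at 1 day, and mouse 1 lay within the control range. The change at 1 day was -0.18 (SE 0.080, unadjusted p 0.058 in limma), and -0.11 without mouse 2 at 1 day or -0.10 without control mouse 1. The brighter probe of its relative Kcnt2 had changes of -0.047 at 1 day and -0.11 at 10 days against control. The change of this probe at 10 days was -0.036 without mouse 3 of that group and -0.16 without its mouse 1. The dimmer Kcnt2 probe had changes of -0.034 at 1 day and 0.027 at 10 days against control, so the 2 probes differed in sign at 10 days. Kcnn2 and Kcnn3, small-conductance channels of the afterhyperpolarisation, had changes of 0.0075 and -0.045 at 1 day, and of 0.067 and -0.075 at 10 days. The Kcnn2 change at 1 day was -0.051 without mouse 2 of that group.

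Auxiliary subunits were higher for 8 of 16 probes at 1 day and for 5 of 16 at 10 days, both against control. The shares higher were 50% and 31.2%, against 49.7% and 48.6% of all tested probes. Kcnab1 encodes a cytoplasmic beta subunit that lends fast inactivation to Shaker-type channels such as Kcna1. It had values of 9.97 and 10.00 in the control mice, of 9.96, 9.68 and 9.70 at 1 day, and of 10.05, 9.92 and 9.92 at 10 days. Mice 2 and 3 at 1 day had the lowest values, and mouse 1 lay just below the control mice and within the range of 10 days. The log2 change was -0.20 at 1 day against control (SE 0.089, unadjusted p 0.052) and 0.18 between 10 days and 1 day (SE 0.079, unadjusted p 0.049), with adjusted p-values of 1.00 in limma. Without mouse 2 at 1 day these changes were -0.15 and 0.13.

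Kcnab2, the related beta subunit that also steers channels to axons, had values of 9.10 and 9.15 in the control mice, of 8.95, 9.12 and 8.91 at 1 day, and of 8.95, 8.99 and 9.09 at 10 days. All mice at 10 days lay below the control mice, whereas mouse 2 at 1 day lay between them. The changes were -0.13 at 1 day and -0.12 at 10 days against control (SE 0.071 each), and -0.19 at 1 day without mouse 2. Kcne4, a single-pass subunit that inhibits several voltage-gated channels, had values of 6.49 and 6.50 in the control mice, of 6.38, 6.52 and 6.50 at 1 day, and of 6.62, 6.63 and 6.52 at 10 days. The mice at 10 days lay above all others, though mouse 3 only just above mouse 2 at 1 day. The change was 0.13 between 10 days and 1 day (SE 0.049, unadjusted p 0.034, adjusted p 1.00 in limma), and 0.097 at 10 days against control. Without mouse 1 at 1 day the change between the trehalose times was 0.081, with an unadjusted p of 0.12.

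The Kcnip genes encode calcium-binding partners of Kcnd channels, and their 4 probes showed no shared direction. At 1 day and 10 days against control, Kcnip1 had changes of 0.026 and -0.013, Kcnip2 of -0.13 and -0.082, Kcnip3 of 0.022 and -0.011, and Kcnip4 of 0.070 and 0.061. The Kcnip3 change at 1 day was 0.086 without mouse 2 of that group. The F test gave unadjusted p-values of 0.35 to 0.94 for them in limma, with adjusted p-values of 1.00.

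**Figure D4:**
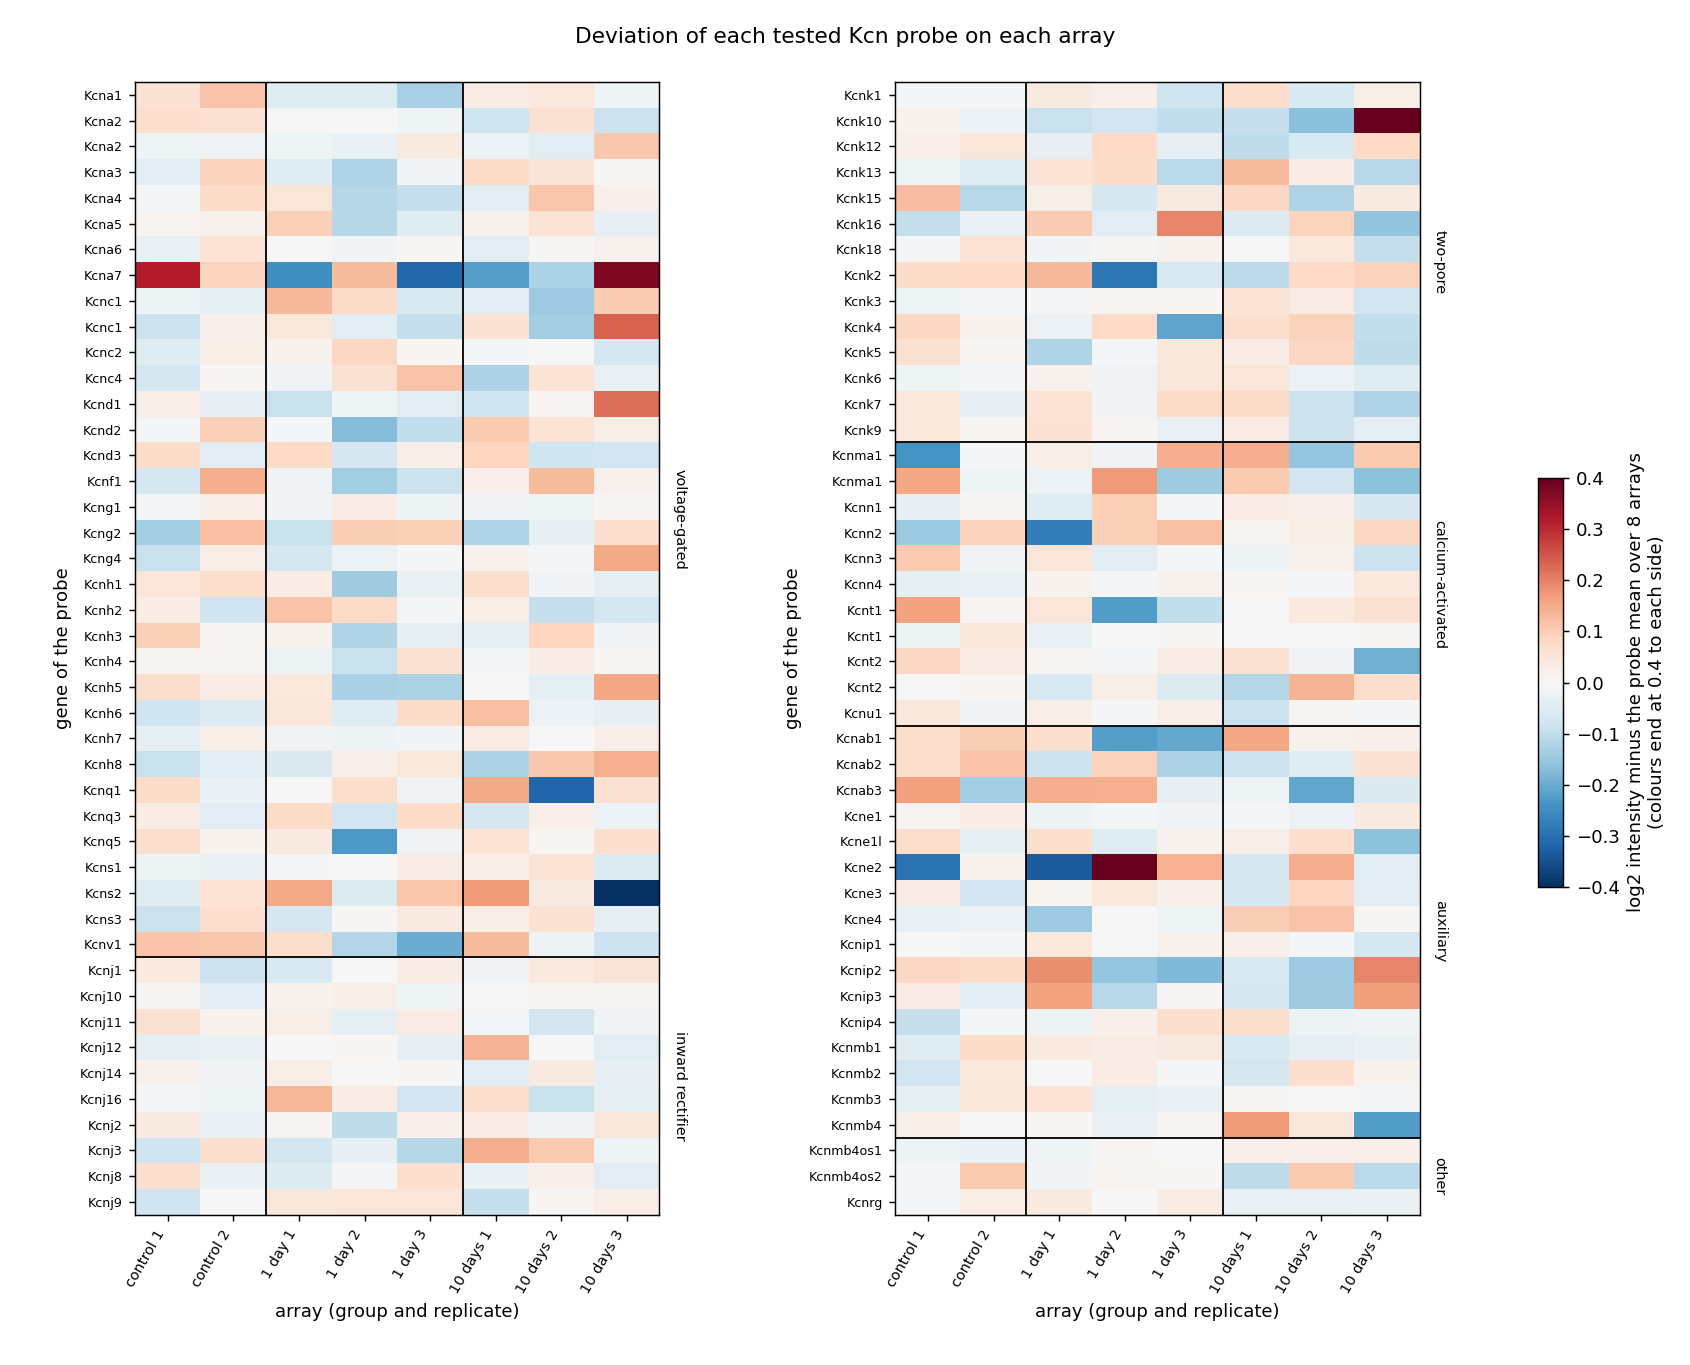
Deviation of each tested Kcn probe from its own mean over the 8 arrays (colour, log2 intensity, ending at 0.4 to each side), with probes in rows by class and arrays in columns by group and replicate. No class forms a block of 1 colour in any group, and the strongest deviations are those of Kcna7, Kcne2, Kcnk10 and Kcns2 on a few arrays each.

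The members differed in how much they varied between mice. The range over the 8 arrays was 0.78 for Kcne2, 0.70 for Kcnk10, 0.69 for Kcna7, 0.59 for Kcns2 and 0.47 for Kcnq1. For Kcns2, a silent subunit, the low value was that of mouse 3 at 10 days, at 6.57, with the other arrays between 6.93 and 7.16. For Kcnq1, a channel better known from heart and epithelia, it was that of mouse 2 at 10 days, at 6.12, with the others between 6.41 and 6.59. Kcna7 had values of 8.40 and 8.17 in the control mice, of 7.83, 8.21 and 7.77 at 1 day, and of 7.86, 7.95 and 8.45 at 10 days. Its groups overlapped, and its change of -0.35 at 1 day against control (SE 0.19) had an unadjusted p of 0.11 in limma. Without mouse 2 at 1 day the change was -0.48, with an unadjusted p of 0.040.

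Several members are known for a brain region or cell type, so they were set beside markers of those regions. The 13 striatal marker probes were all lower at 1 day than in control, with a median log2 change of -0.32. Without mouse 2 at 1 day, 8 of 13 were lower and the median was -0.063. Of the Kcn genes known from striatum, Kcnab1, Kcnip2 and Kcnh4 were likewise all lower at 1 day, with changes of -0.20, -0.13 and -0.026. Without that mouse the changes were -0.15, -0.074 and 0.011. Kcnh4 averaged 6.03, near the blank limit of 5.82 to 5.87, so its changes are compressed. Kcnab1 and Kcnip2 were also low in mouse 3 at 1 day, whose striatal mean of 8.52 lay near that of control mouse 2, at 8.56. The part of the striatal markers in the values of Kcnab1 and Kcnip2 was not tested.

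Kcne2, an auxiliary subunit of choroid plexus epithelium, had values of 6.90 and 7.21 in the control mice, of 6.87, 7.64 and 7.34 at 1 day, and of 7.13, 7.35 and 7.15 at 10 days. Mouse 2 at 1 day was highest, and mouse 1 at 1 day and control mouse 1 were lowest. The mean of the 8 choroid plexus marker probes was also highest in mouse 2 at 1 day, at 8.24, and lay between 7.79 and 8.04 on the other arrays. The lowest of these were control mouse 1, at 7.79, and mouse 1 at 1 day, at 7.82. The change of Kcne2 at 1 day against control was 0.22 (SE 0.21), and 0.046 without mouse 2. Thalamic markers were higher for 12 of 13 probes at both times against control, with medians of 0.17 and 0.15, and those of cortical excitatory neurons were lower for 8 of 10 at 1 day and 9 of 10 at 10 days. Mean log2 intensities of these 10 excitatory markers were 8.19 to 8.21 in the control mice, 8.08 to 8.20 at 1 day and 8.09 to 8.11 at 10 days, and their part in the Kcn values was not tested.

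**Figure D5:**
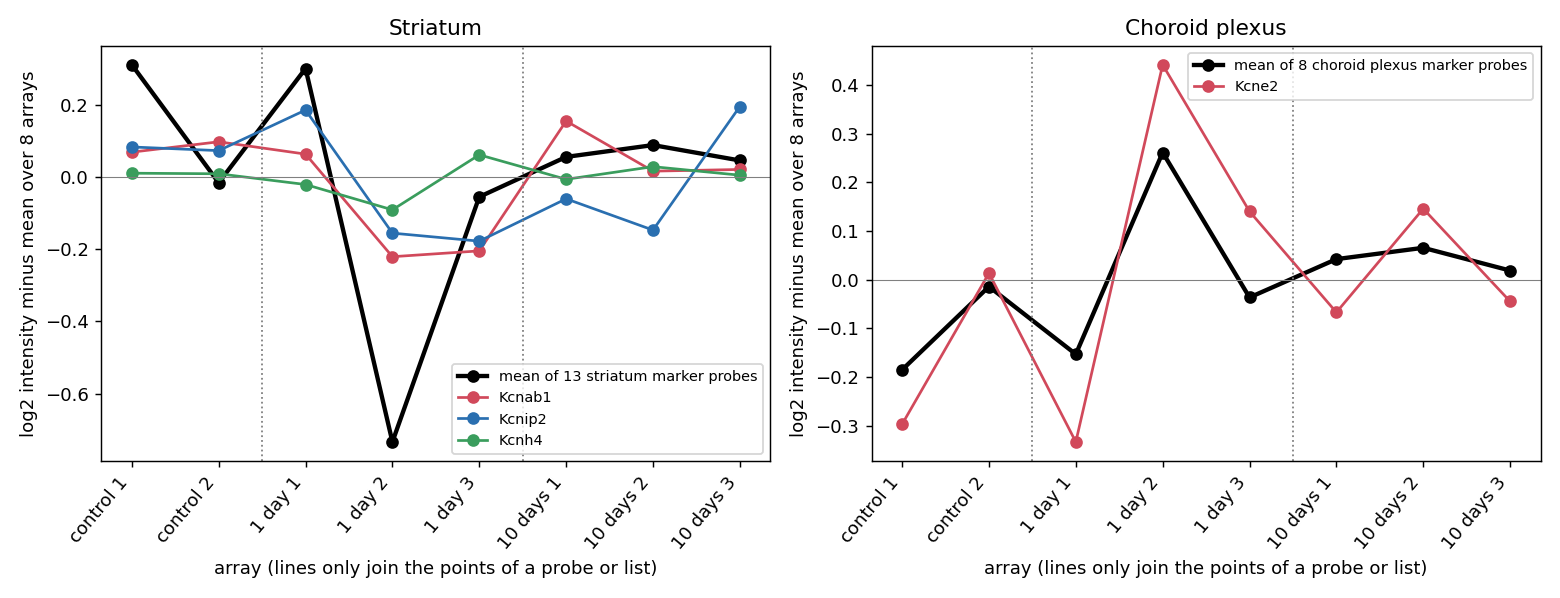
Log2 intensity minus the mean over the 8 arrays, for the mean of the striatal markers with Kcnab1, Kcnip2 and Kcnh4 (left) and the mean of the choroid plexus markers with Kcne2 (right), on each array in order of group and replicate. The striatal mean drops on the array of mouse 2 at 1 day, and Kcne2 and the choroid plexus mean both peak there.

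Some members lie next to each other in the genome, as the reference annotation of GRCm38.p6 lists them. Kcna1 stands between Kcna5 and Kcna6 on chromosome 6, and Kcna2 next to Kcna3 on chromosome 3. Kcnj9 adjoins Kcnj10 on chromosome 1, and Kcnj16 adjoins Kcnj2 on chromosome 11. At 1 day against control the changes of Kcna5 and Kcna6 were -0.037 and -0.014, against -0.16 for Kcna1, and without mouse 2 at 1 day that of Kcna5 was 0.0089. Kcna5 and Kcna6 averaged 6.04 and 6.32, nearer the blank limit (5.82 to 5.87) than Kcna1 at 10.84, so their changes are more compressed. At 10 days against control, Kcna3 had a change of 0.021 and its neighbour Kcna2 of -0.098 for the brighter probe.

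Genes whose proteins bind or anchor potassium channels were read from a list of 26, of which 23 had a tested probe (36 probes). None of the 36 probes passed an adjusted p of 0.05 in limma in any comparison. At 1 day against control 15 were higher and 21 lower, and at 10 days 23 were higher and 13 lower. Of all tested probes, 49.7% were higher at 1 day and 48.6% at 10 days. An unadjusted p under 0.05 was found for 2 probes (5.56%) at 1 day and for 1 (2.78%) at 10 days, both against control, and for 2 (5.56%) between the trehalose times. The shares of all tested probes were 3.65%, 2.0% and 3.5% in the same order. Ank3 encodes ankyrin-G, which anchors channels at the axon initial segment. One of its probes had values of 10.15 and 10.02 in the control mice, of 9.89, 9.86 and 9.80 at 1 day, and of 10.01, 9.78 and 9.89 at 10 days. The trehalose mice at both times lay below the control mice, with changes of -0.24 (SE 0.074) and -0.19 (SE 0.074), while the brightest Ank3 probe was higher by 0.16 at 1 day. Kctd8, a subunit of GABA-B receptors, which act on the GIRK channels, had values of 7.36 and 7.42 in the control mice, of 7.35, 7.14 and 7.21 at 1 day, and of 7.46, 7.40 and 7.46 at 10 days. It was higher at 10 days than at 1 day by 0.21 on the log2 scale (SE 0.056, unadjusted p 0.0060 in limma), with no overlap between these groups. The Kctd8 values at 10 days and those of the control mice overlapped.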

How the data were processed

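RNA of 8 mice, each a separate animal per the labels, was measured on 1-colour Cy5 oligonucleotide arrays. Per the file headers, each scanner file gives a median intensity per spot, joined over 3 gains, and a local background intensity. A table of linear intensities processed by the authors was used as an alternative. No batch could be tested, since software, scan date and slide are not given in the sources used here.

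Log2 intensities were computed from the deposited spot medians with limma 3.58.1 (R 4.3.3): normexp with an offset of 50 on all spots, failed-flag spots set to missing (10 probe spots), quantile normalisation, and averaging of spots of a probe. The local background rose with spot brightness (correlation of log values 0.936 to 0.983) and was left out. The offset compresses changes, most of all those of dim probes, and the number of arrays limits the precision. Probes above the mean plus 2 SD of 2736 blank spots on at least 2 arrays were tested, and probes of a gene were kept apart. Names came from the platform annotation, which gave a symbol to 20690 probes and none to 2783.

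All arrays entered 1 fit of 3 groups with 5 residual degrees of freedom, moderated by eBayes, with a threshold of 0.05 after Benjamini-Hochberg adjustment over all tested probes. The procedure was tested on simulated data. In each comparison, members past the threshold, filled up to 8 with the lowest unadjusted p, were named, besides a list of genes by role, a list of partner genes and members known for a region or cell type. Kcna7, Kcnk10, Kcnk16, Kcns2 and Kcnq1 were named after their values were seen, as were the neighbours of named genes. The members and lists were chosen with earlier results of these data known. Alternatives were another offset, the local background, the authors' table, median scaling, other filters, trend with robust variances, array weights, replicate and description numbers, fits of the compared groups alone, and leaving out each mouse.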

Additional observations from a re-analysis of the deposited data

How the results depend on the processing

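No Kcn probe passed the adjusted threshold in limma under any of the 11 other settings (10 for the test over the 3 groups) or the 8 fits that left out 1 mouse. Kcn probes at an unadjusted p under 0.05 in limma were also counted in the fits that left out 1 trehalose mouse. At 1 day against control they numbered 1 to 9 (1.14% to 10.2%), against 2.27% to 4.71% of all tested probes. At 10 days against control they numbered 0 to 3 (up to 3.41%), against 1.83% to 3.18%. Between the trehalose times they numbered 4 to 8 (4.55% to 9.09%), against 2.97% to 5.56%. Over the 3 groups they numbered 1 to 6 (1.14% to 6.82%), against 2.14% to 4.15%. Over all tested probes, trend with robust variances called 1 probe at 10 days against control, 1 between the trehalose times and 1 over the 3 groups. Without control mouse 1, 2 probes were called in each comparison with control and 2 over the 3 groups, and leaving out other mice called 0, so the range was 0 to 2.

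Of 264 log2 changes of named probes under other settings, 254 kept their direction, and 192 of 192 did when a mouse was left out. The other 10 reversed when the local background was subtracted, and the cause was not tested. At 1 day against control these were Kcna1 (0.00083), Kcnd2 (0.39), Kcnt1 (0.041) and Kcnh1 (0.029). At 10 days against control they were Kcna1 (0.15), Kcna2 (0.059), Kcnt2 (0.19) and the dimmer Kcnma1 probe (-0.31). Between 10 days and 1 day they were Kcnd2 (-0.17) and Kcnh2 (0.096).

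The median Kcn log2 change moved by more than its spread between replicates (0.0047) with the local background, to 0.0090 at 1 day, 0.025 at 10 days and 0.020 between the trehalose times. With the authors' deposited table it was -0.069, 0.0066 and 0.090, where the medians of all probes were -0.052, 0.025 and 0.077. It was -0.0044 at 10 days with the description number as a covariate. Leaving out 1 mouse gave medians of -0.012 to -0.0053 at 1 day, -0.011 to -0.0023 at 10 days and -0.0028 to 0.0041 between the trehalose times.

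With the replicate number as a block, 0 Kcn probes passed, and the median was -0.011 at 1 day and -0.0027 at 10 days. At 1 day against control, 4 Kcn probes had an unadjusted p under 0.05 in limma. The share of all tested probes in that fit was not computed, so the count of 4 cannot be set against it. Deviations from the group means correlated at 0.12 to 0.26 in 6 of the 7 pairs of arrays with the same number, and at -0.025 for mouse 2 at 1 day and at 10 days. The 14 pairs with different numbers lay between -0.31 and 0.21, and 10 of them were below 0. With 2 control mice, their deviations mirror each other (0.26 and -0.26 with mouse 1 at 1 day), so the pairs are not independent. Because 1 same-number pair was not over 0.1, the main fit did not pair the mice by number. Whether mice of the same number shared a source of variation was not tested.

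Spots were at most 2.87 times the blanks at the median, so changes are compressed, most of all in dim members such as Kcnj10. On this compressed scale, the intervals of 63 of 88 Kcn probes stayed within 1.2-fold at 1 day against control.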
